A study of Mus musculus with 6 samples.

Results

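The 6 transcripts described here, of 32285 genes counted, were Gm42418 and AY036118, which overlap a ribosomal RNA gene in the annotation, Gm26917, which lies beside it, Lars2, whose 3′ UTR matches 2 noncoding transcripts, and Malat1 and Neat1, a pair of long noncoding RNAs that stay in the nucleus. They were taken by symbol, and all 6 symbols occurred once and matched their gene identifiers in GENCODE vM21. They were chosen by their measured levels in barcodes with many mitochondrial UMIs or few genes and in droplets without a called cell, so those levels are given below as a description. Comparisons of diet, surgery and compartment were not part of that choice, but were known when the set was drawn up.

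RNA of single jejunal epithelial cells was counted by unique molecular identifier (UMI) in 6 libraries. The animals were male wild-type C57BL/6J mice of about 30 weeks. LFD sham mice ate a low-fat diet and HFD sham mice a high-fat diet for 16 weeks before a sham operation, and HFD VSG mice ate the same high-fat diet before vertical sleeve gastrectomy (VSG), which removes most of the stomach. Tissue was taken from fasted mice 5 weeks after surgery, and cells of 3 mice of LFD sham, 3 of HFD sham and 2 of HFD VSG were pooled into 1 crypt-labelled and 1 villus-labelled library per group. With 1 library per group there is no replicate, so no test was run. Brackets hold exact 95% intervals that cover counting error only, and the spread between mice or preparations is unknown.

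Values were taken from sums of UMIs over barcodes, as counts per 1000000 UMIs (CPM). Where mitochondrial UMIs were left out of the total, the unit is called non-mitochondrial CPM. Of 59457 barcodes called as cells, 26696 had at least 750 genes and at most 20% mitochondrial UMIs and are called passing barcodes. The UMIs summed over them numbered 38767388 to 144932811 by library, and the median barcode had 9202 to 16734 UMIs in the crypt-labelled and 11012 to 30895 in the villus-labelled libraries, highest in HFD VSG in both. At these depths the half-width of the interval of a level was at most 0.181% of the level for Gm42418 and 2.26% for Gm26917, the least counted member. Between libraries, 420 barcode sequences were called more than once. Sums of pooled cells cannot separate fewer cells with a transcript from less of it per cell. Markers went against the compartment labels: Paneth markers summed to 10205 to 11467 CPM in the crypt-labelled and 14398 to 74688 CPM in the villus-labelled libraries, stem and cycling markers to 303 to 441 and 723 to 1584 CPM, and enterocyte markers to 73211 to 84932 and 32164 to 56469.8 CPM. "Crypts" and "villi" therefore refer to labels alone.

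Ribosomal RNA is most of the RNA of a cell, carries no poly(A) tail and is meant to escape capture by oligo(dT), so genes whose sequence overlaps it can collect reads that started from priming inside ribosomal RNA. Malat1 lies in nuclear speckles beside splicing factors, and Neat1 is the scaffold of paraspeckles. Because both are kept in the nucleus while most messenger RNA is cytoplasmic, their share of a barcode is commonly read together with the mitochondrial share when intact cells are separated from stripped nuclei, broken cells and free RNA. Lars2 encodes the leucyl-tRNA synthetase of mitochondria.

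Gm42418, AY036118 and Gm26917 lie side by side on chromosome 17 of GRCm38. Gm42418 (ENSMUSG00000098178, chr17:39846958-39848788, plus strand) and AY036118 (ENSMUSG00000105361, chr17:39847113-39848035, minus strand) are single-exon long noncoding genes on opposite strands, and all 923 bases of AY036118 lie inside Gm42418. Gm26917 (ENSMUSG00000097971, chr17:39843013-39846341, plus strand) ends 616 bases before Gm42418 and 11 bases before CT010467.1, a gene annotated as ribosomal RNA on the minus strand that spans the whole of Gm42418. The RefSeq table of GRCm38.p6 lists Gm42418 as a synonym of Rn18s-rs5, a pseudogene, and places AY036118 at chr17:39848112-39898385, which does not overlap the GENCODE interval. The count table carries Ensembl identifiers, so the GENCODE intervals are used here. Identity with mature ribosomal RNA was not tested for any member. The first window below, shown because the pair shares it, is the start of AY036118 in the GENCODE vM21 transcript, and the second is the stretch of Gm42418 at the same coordinates. The capitals mark the same 20 base pairs read on either strand. The third is the end of Gm26917, which 3′ counting samples and which is the part nearest the ribosomal RNA gene, of which 71.7% of bases are G or C.
AY036118 (chr17:39847976-39848035, minus strand): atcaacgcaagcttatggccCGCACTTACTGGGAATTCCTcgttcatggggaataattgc
Gm42418 (chr17:39847976-39848035, plus strand): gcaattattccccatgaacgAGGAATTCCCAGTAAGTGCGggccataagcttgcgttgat
Gm26917 (chr17:39846282-39846341, plus strand): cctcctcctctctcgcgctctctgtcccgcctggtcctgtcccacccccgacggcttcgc

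In GENCODE vM21 transcripts, 899 of 899 stretches of 25 bases of AY036118 were found on the opposite strand of Gm42418, and 1220 of 1807 of Gm42418 on the opposite strand of CT010467.1-201, a transcript of the ribosomal RNA gene. All 899 of AY036118 were found on the same strand of that transcript. These strands are those of the annotation, and which member reads in the sense of mature ribosomal RNA was not tested. Whether strand was used in counting is not given in the sources used here, so molecules of this pair cannot be told apart from their sequence alone, and values of each are uncertain to that extent.

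Lars2 (ENSMUSG00000035202, chr9:123366927-123462666, plus strand, 21 exons) is the protein-coding member. A stretch of 158 bases in its 3′ UTR held 25-base matches to the noncoding transcripts of AA474408 and Gm15564, of which Gm15564 is a gene of the count table, and 30 bases shared with both are shown because 3′ counting samples this end of the transcript. Malat1 (ENSMUSG00000092341, chr19:5795690-5802672, minus strand) and Neat1 (ENSMUSG00000092274, chr19:5824708-5845478, minus strand) are neighbours 22035 bases apart on chromosome 19. The longest run of A in Malat1, 12 bases in capitals below, lies 298 bases before its end, a stretch to which oligo(dT) can anneal, whereas the longest run was 7 in Neat1 and 4 to 6 in the others. Windows of 20 bases with at least 14 A numbered 11 in Malat1, 32 in Neat1 and 0 in the other 4 members.
Lars2 (chr9:123462048-123462077, plus strand): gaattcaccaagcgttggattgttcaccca
Malat1 (chr19:5795974-5796013, minus strand): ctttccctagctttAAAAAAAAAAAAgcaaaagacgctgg

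**Figure D1:**
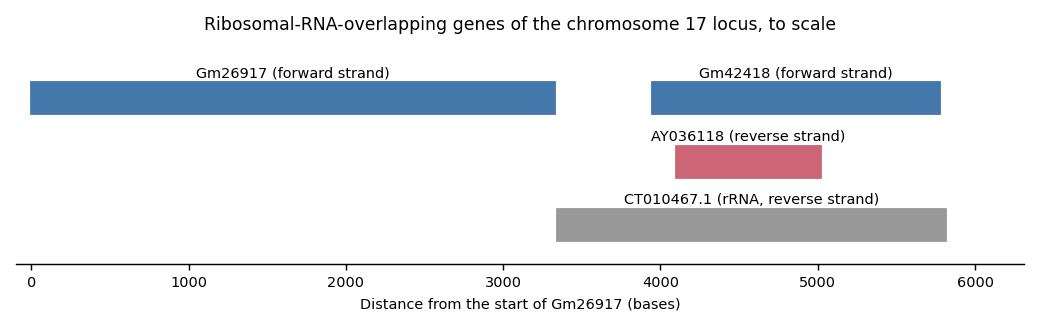
Map of the chromosome 17 locus, to scale, with the distance from the start of Gm26917 in bases on the x axis and 1 bar per gene with its strand. AY036118 (923 bases) lies wholly inside Gm42418 (1831 bases), and both lie inside the ribosomal RNA gene CT010467.1.

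In passing barcodes, Gm42418 stood, in CPM, at 72266, 62574 and 13521 in the LFD sham, HFD sham and HFD VSG crypts and 51234, 41808 and 8307 in the corresponding villi. Both HFD VSG libraries were below the 4 sham libraries, whose levels ran from 41808 to 72266 CPM. The share of all genes with this order of libraries was not counted, here or below. AY036118, annotated on the other strand of the same stretch, had 3069, 3131 and 892 in the LFD sham, HFD sham and HFD VSG crypts and 1826, 1191 and 387 in the corresponding villi. For Lars2 the levels were 2705, 2032 and 515 in the LFD sham, HFD sham and HFD VSG crypts and 1689, 1363 and 368 in the corresponding villi, again with both HFD VSG libraries lowest. Gm26917 stood at 213, 202 and 123 in the LFD sham, HFD sham and HFD VSG crypts and 285, 309.9 and 52.3 in the corresponding villi, so its HFD VSG crypts were below the sham libraries by less than its HFD VSG villi were.

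Malat1 and Neat1 varied less. Malat1 had 12007, 9712 and 8849 in the LFD sham, HFD sham and HFD VSG crypts and 9857, 9055 and 5435 in the corresponding villi, and all libraries but the HFD VSG villi lay within 8849 to 12007 CPM. Neat1 had 834, 643 and 695 in the LFD sham, HFD sham and HFD VSG crypts and 509.9, 552 and 244 in the corresponding villi, with the HFD VSG villi lowest and the HFD VSG crypts second highest. The share of all passing UMIs that the 6 members took was 9.11%, 7.83% and 2.46% in the LFD sham, HFD sham and HFD VSG crypts and 6.54%, 5.43% and 1.48% in the corresponding villi.

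The first comparison asks what the high-fat diet did, HFD sham to LFD sham. No member moved past a log2 ratio of 1, the size used here to describe a difference in the absence of replicates, in the crypt-labelled or in the villus-labelled libraries. After subtraction of the free-RNA share that the study states, however, Gm26917 was at −1.18 in the crypts and AY036118 at −1.24 in the villi. Without it, in the crypts the log2 ratios were −0.21 [−0.21, −0.21] for Gm42418, 0.03 for AY036118, −0.08 for Gm26917, −0.41 for Lars2, −0.31 for Malat1 and −0.38 for Neat1. In the villi they were −0.29 [−0.30, −0.29], −0.62, 0.12, −0.31, −0.12 and 0.12. Thus 0 of 6 members were past 1 in either, against a background of 2.31% of 11060 genes in the crypts and 9.24% of 12253 in the villi, over genes that averaged 50 UMIs or more in the pair of libraries. The median of all genes was −0.01 and −0.11. Medians over single villus barcodes differed more than these sums for Gm42418 and AY036118. The median share of non-mitochondrial UMIs was 6.10% in LFD sham and 2.95% in HFD sham villi for Gm42418, and 0.228% and 0.102% for AY036118. It was lower in HFD sham villi for Lars2 and Malat1 too, and higher for Gm26917 and Neat1. In the crypts that of Gm42418 was 7.54% and 5.89%.

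The second comparison, HFD VSG to HFD sham, asks what surgery did under the same diet, and here Gm42418, Lars2 and AY036118 differed past 1 in both compartments. In the crypts Gm42418 was 4.63-fold lower after VSG (log2 −2.21 [−2.21, −2.21]), Lars2 3.94-fold lower (−1.98) and AY036118 3.51-fold lower (−1.81 [−1.82, −1.80]). From the lowest ratio of 11482 genes these ranked 5, 6 and 12. Gm26917 (−0.71 [−0.75, −0.67]), Malat1 (−0.13) and Neat1 (0.11) stayed within 1, so 3 of 6 members were lower past 1, where 0.801% of genes were. The value of Gm26917 in the crypts turned with the processing, from −1.07 with every barcode thinned to 1500 UMIs, which weights barcodes equally, to 0.37 after the stated share of free RNA was subtracted, and that of Neat1 ran from −0.09 to 0.23. In the villi 5 of 6 members were lower past 1, where 7.51% of 12782 genes were: Gm26917 by 5.93-fold (log2 −2.57 [−2.61, −2.53]), Gm42418 by 5.03-fold (−2.33 [−2.33, −2.33]), Lars2 by 3.70-fold (−1.89 [−1.91, −1.87]), AY036118 by 3.08-fold (−1.62 [−1.64, −1.61]) and Neat1 by 2.26-fold (−1.18 [−1.20, −1.16]). With the stated share of free RNA subtracted, AY036118 in the villi came to −0.89, within 1. In the HFD sham crypts this subtraction left no UMIs of AY036118, so its crypt ratio then had no value. Malat1 was at −0.74 there, and the median of all genes was 0.15 in the crypts and 0.06 in the villi.

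Other measures also differed between HFD sham and HFD VSG. The summed CPM of 9 of 9 immune markers went from 286 in HFD sham to 131 in HFD VSG crypts and from 7.61 to 981 in the villi, that of 8 of 8 Paneth markers from 11008 to 10205 and from 39919 to 14398, and that of 9 of 9 stem and cycling markers from 329 to 441 and from 723 to 1401. Hemoglobin genes, markers of red blood cells, were at 0 in the 3 crypt-labelled libraries and summed to 0.0172 CPM in the HFD sham and 57.9 CPM in the HFD VSG villi. The median mitochondrial share of passing barcodes was 11.7% in HFD sham and 12.3% in HFD VSG crypts, and 10.9% and 7.11% in the villi. The HFD sham villi differed from the LFD sham villi too. The immune-marker class defined below held 574, 4 and 526 barcodes in the LFD sham, HFD sham and HFD VSG villi, and 122, 77 and 61 in the crypts. The stem- and cycling-marker class held 701, 300 and 881 in the villi and 110, 115 and 268 in the crypts. Pools of mice, preparation and group cannot be told apart in these libraries.

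Set against LFD sham, HFD VSG gave 3 of 6 members lower past 1 in the crypts, where 1.74% of genes were, and 5 of 6 in the villi, where 7.53% were. Gm42418 had log2 ratios of −2.42 and −2.62, AY036118 of −1.78 and −2.24, Gm26917 of −0.79 and −2.45, Lars2 of −2.39 and −2.20, Malat1 of −0.44 and −0.86, and Neat1 of −0.26 and −1.06. This comparison shares its HFD VSG libraries with that of surgery and its LFD sham libraries with that of diet, so the 3 are not independent.

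Between compartments, villus-labelled to crypt-labelled, 0 of 6 members were past 1 in LFD sham (background 29.7% in either direction), 1 of 6 in HFD sham (13.1%) and 3 of 6 in HFD VSG (32.1%), all of them lower in the villi. Most genes past 1 were higher in the villi. Those lower past 1 numbered 545 of 12150 in LFD sham, 203 of 11309 in HFD sham and 1311 of 12903 in HFD VSG. The median of all genes was 0.32, 0.21 and 0.20. The member in HFD sham was AY036118, and those in HFD VSG were AY036118, Gm26917 and Neat1. AY036118 was lower in the villi in each group, at −0.75, −1.39 and −1.21, and so was Gm42418, at −0.50, −0.58 and −0.70. Gm26917 was higher in the villi of LFD sham (0.42) and HFD sham (0.62) and lower in those of HFD VSG (−1.24). Lars2 was at −0.68, −0.58 and −0.49, Malat1 at −0.28, −0.10 and −0.70, and Neat1 at −0.71, −0.22 and −1.51.

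**Figure D2:**
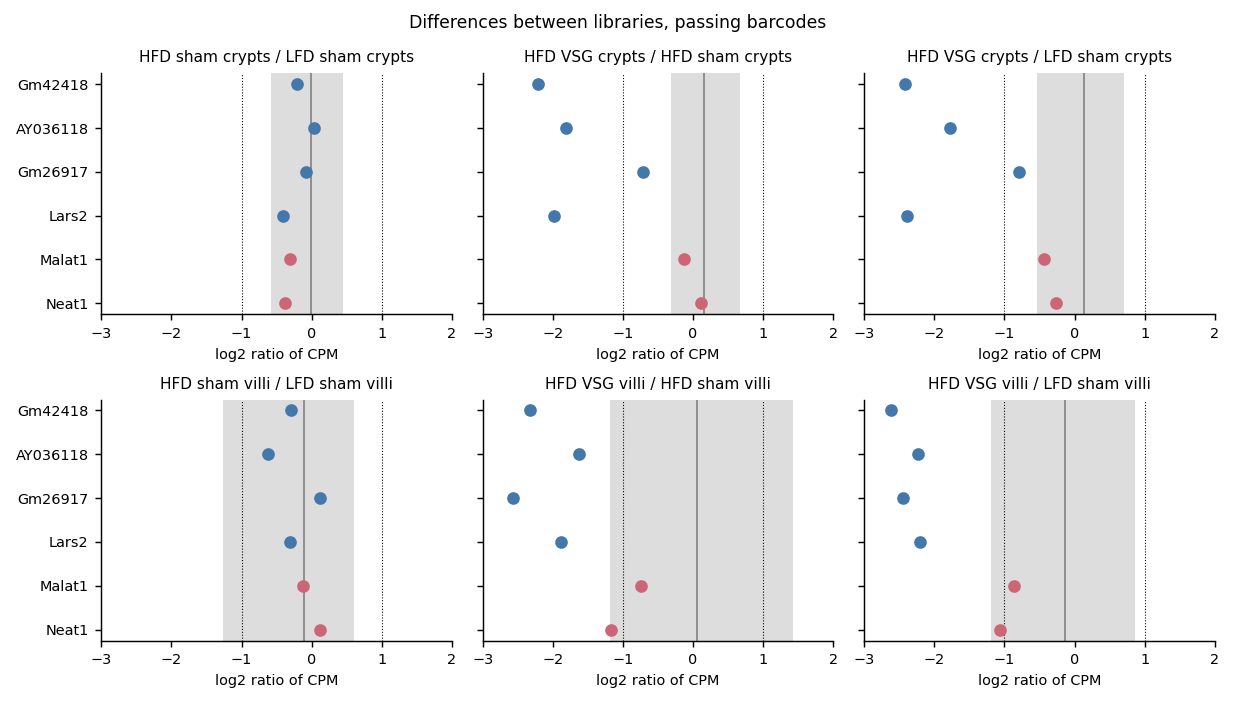
Log2 ratio of CPM between passing barcodes of 2 libraries (x axis) for each member (y axis), for diet, surgery and HFD VSG to LFD sham, with the median of all genes tested as a grey line, their 5th to 95th percentile as a grey band and dotted lines at −1 and 1, and 95% counting intervals narrower than most points. Gm42418, AY036118 and Lars2 lie left of −1 in both panels of surgery, and all members lie within 1 in both diet panels.

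The lower levels after VSG were spread over barcodes. The median share of Gm42418 among the non-mitochondrial UMIs of a passing barcode was 5.89% in HFD sham and 1.01% in HFD VSG crypts, and 2.95% and 0.790% in the villi. Of HFD VSG barcodes, 78.0% in the crypts and 77.2% in the villi lay below the value that separates the lowest 10% of HFD sham barcodes. The same held for 73.8% and 41.5% of them with AY036118 and for 58.8% and 62.8% with Lars2, but for 15.4% and 47.0% with Malat1. No single barcode held more than 0.740% of a member's passing UMIs in any library.

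Because depth, mitochondrial share and cell makeup differed between HFD sham and HFD VSG, the ratio was also taken within narrower sets of barcodes, per non-mitochondrial UMI. Of these sets, the bins of mitochondrial share hold all called barcodes, those under 750 genes included. These sets do not match depth. Villus barcodes of 3000 genes or more had a median of 33099.5 UMIs in HFD VSG and 16389.5 in HFD sham, while HFD VSG had fewer in the other villus bins of gene number. Villus enterocyte-marker barcodes had 35268.5 and 14597.5. In the crypts Gm42418 was lower in HFD VSG past 1 in 6 of 6 bins of mitochondrial share (−2.39 to −1.87), 4 of 4 bins of gene number (−2.18 to −1.48) and 7 of 7 marker classes (−3.14 to −1.82). AY036118 and Lars2 did the same in all of these crypt sets, with the smallest differences at −1.27 and −1.04, although in barcodes of at least 750 genes Lars2 passed 1 in 5 of 6 crypt bins of mitochondrial share, with −0.71 in the other. In the villi Gm42418 was lower past 1 in 6 of 7 bins of mitochondrial share, 4 of 4 bins of gene number and 6 of 6 classes, and the exception was barcodes with under 2% mitochondrial UMIs, at −0.02, or −0.83 with at least 750 genes. AY036118 passed 1 in the villi in 4 of 7 bins of mitochondrial share and 3 of 4 bins of gene number, with a higher level after VSG under 2% mitochondrial UMIs (0.46, or −0.29 with at least 750 genes) and −0.58 from 1500 to under 3000 genes, and Lars2 in 6 of 7 and 4 of 4, with −0.45 under 2%. With at least 750 genes AY036118 passed 1 in 3 and Lars2 in 5 of the 7 villus bins of mitochondrial share. Gm26917 passed 1 in every set of the villi (−3.55 to −1.68 over bins of gene number), and in the crypts in 0 of 6 bins of mitochondrial share, 0 of 4 of gene number and 3 of 7 classes, those with Paneth (−1.60), tuft (−1.38) and enteroendocrine (−2.57) markers. These 3 classes were small, with 29, 13 and 21 barcodes in the HFD sham and 39, 31 and 40 in the HFD VSG crypts. From 40 to 60% mitochondrial UMIs Gm26917 was higher after VSG in the crypts, at 0.99, or at 1.14 and so past 1 with at least 750 genes. Malat1 was lower past 1 in 1 of 7 crypt classes and 1 of 6 villus classes, and Neat1 in 2 and 3. Over bins of mitochondrial share in the crypts, Malat1 was lower past 1 in 0 of 6 and higher past 1 in 1, that of 60% or more (1.48), and Neat1 ran from −0.04 to 0.69. With at least 750 genes Malat1 stayed within 1 over these crypt bins, from −0.36 to 0.90. In the villi Malat1 ran from −0.91 to 0.15 over these bins, and Neat1 was lower past 1 in 3 of 7.

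Gm42418 was also lower after VSG in barcodes that failed the filters and in droplets without a called cell. Its log2 ratio per non-mitochondrial UMI was −1.95 and −1.75 in called barcodes over 20% mitochondrial UMIs, −1.62 and −1.83 in those under 750 genes, and −1.68 and −1.77 in plateau droplets, the cell-free droplets defined below, in crypts and villi. Lars2 had −1.77 and −2.05 in the latter. Gm26917 was at 0.03 in crypt barcodes over 20% mitochondrial UMIs and at −2.39 in those of the villi. Depth moved with these levels. Within each library the share of Gm42418 fell with the UMIs of a passing barcode, with Spearman's rho of −0.71 to −0.54 over 3286 to 5232 barcodes that share a library and its free RNA, and HFD VSG barcodes were the deepest. Among barcodes of 3000 genes or more, the ratio of Gm42418 in the crypts was −1.48, against −2.20 over all passing barcodes per non-mitochondrial UMI.

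**Figure D3:**
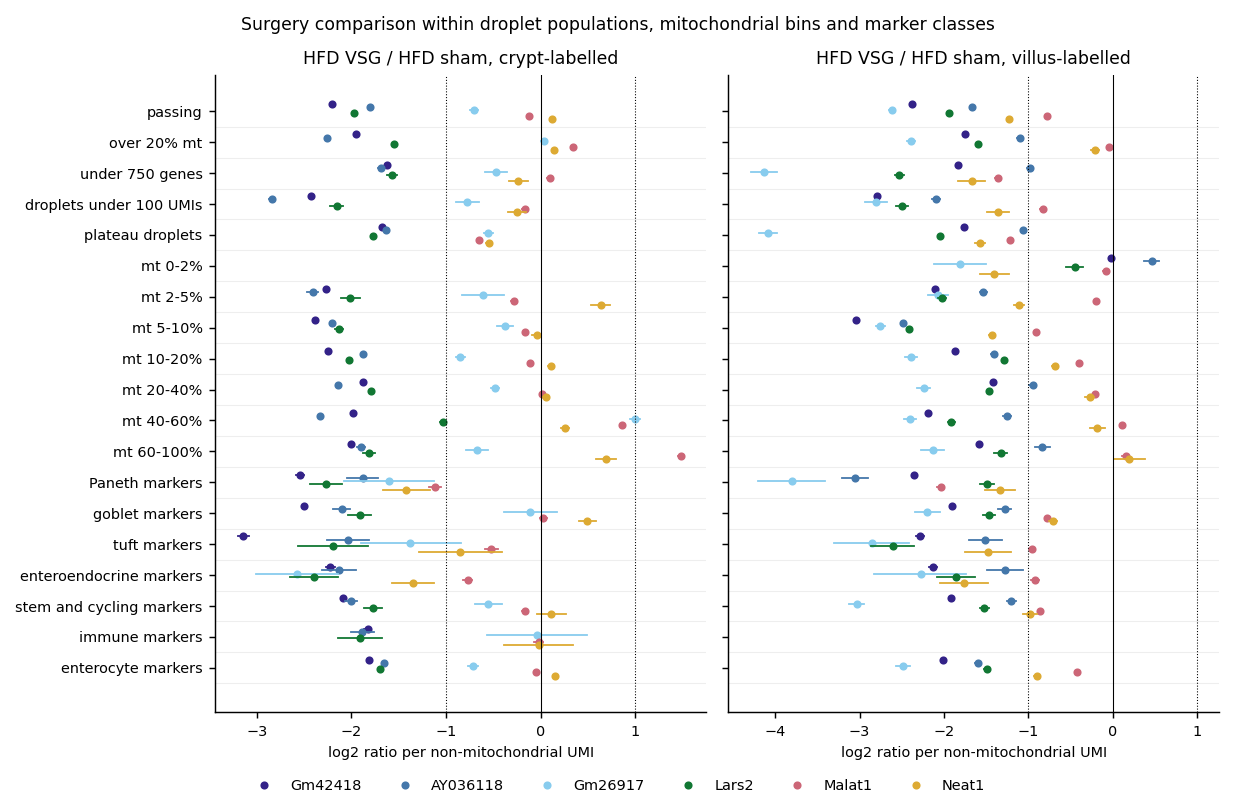
Log2 ratio of HFD VSG to HFD sham per non-mitochondrial UMI (x axis) of each member (colours) within droplet populations, bins of mitochondrial share and marker classes (y axis), with 95% counting intervals as lines and dotted lines at −1 and 1. In the crypts, Gm42418, AY036118 and Lars2 lie left of −1 in every row, while Malat1 and Neat1 scatter around 0 in most. In the villi AY036118 lies at 0.46 and Gm42418 at −0.02 in the bin under 2%.

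Levels in poor barcodes and in droplets without a called cell chose the members and are given as a description. Called barcodes with over 20% mitochondrial UMIs, commonly taken as damaged cells, had more of every member than passing barcodes in 6 of 6 libraries, as had 5.8% of genes. Gm26917 was 2.66 to 7.32-fold and Lars2 2.27 to 5.25-fold higher, and both were past 1 in all 6 libraries, as were 0.205% of 9760 genes. Gm42418 was 1.34 to 4.28-fold, AY036118 1.60 to 3.22-fold, Malat1 1.29 to 2.51-fold and Neat1 1.18 to 2.47-fold higher. In CPM, Gm26917 had 52.3 to 309.9 in passing and 382 to 1877 in these barcodes, and Lars2 had 368 to 2705 and 1773 to 6136. The 20 genes past 1 in all libraries were the 13 mitochondrial genes, these 2 members and 5 others, namely Rmrp, the RNA of a ribonuclease that cuts ribosomal RNA precursors, Usp35, Bco1, Enpp3 and Slfn4.

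Mitochondrial UMIs are part of the total, so a share of the other UMIs is given too. Per non-mitochondrial UMI, AY036118 (2.08 to 4.90-fold), Gm26917 (3.46 to 11.1-fold) and Lars2 (2.95 to 7.98-fold) were past 1 in all 6 libraries, as were 0.503% of genes, and Gm42418 (1.74 to 6.50-fold) in 5. Neat1 (1.86 to 3.75-fold) was also past 1 in 5 libraries and Malat1 (1.85 to 3.81-fold) in 4. With barcodes under 750 genes left out, AY036118 (1.77 to 4.39-fold) was past 1 in 5 libraries and not in the LFD sham crypts, and Malat1 (1.92 to 4.02-fold) in 5.

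Over bins of mitochondrial share, the 6 members were higher at 20 to 40% than at 10 to 20% in every library, as were 36.6% of 8736 genes, and where they peaked depended on whether barcodes under 750 genes were counted. In non-mitochondrial CPM over all called barcodes, Gm42418 had 15214 to 85228 in barcodes with 10 to 20% mitochondrial UMIs and 67606 to 346283 in those with 60% or more, and was highest in this last bin in 6 of 6 libraries. Gm26917 had 78.4 to 413 in the former bin and 1240.0 to 7769.7 in the latter, and Lars2 634 to 3324 and 3424 to 13432, so each was higher in the latter in 6 of 6 libraries, as were 9.05% of 8320 genes, although in the HFD VSG crypts both were higher still at 40 to 60% (2228 and 4505), as was Lars2 in the HFD sham villi (14884). Malat1, a nuclear RNA, was highest at 20 to 40% in the 4 sham libraries (21921 to 27278) and lower again at 60% or more (13580.2 to 17692). In the HFD VSG crypts Malat1 kept rising to 37911, and in the HFD VSG villi it peaked at 40 to 60% with 26232. Among barcodes of at least 750 genes this decline was not seen after 20 to 40%: Malat1 was highest at 40 to 60% in the LFD sham and HFD sham crypts (28647 and 24595) and at 60% or more in the other 4 libraries, and Gm42418 was highest in the last bin in 4 of 6. Neat1 had 383 to 2402 over the bins from 10% up. At the other end, villus barcodes under 2% mitochondrial UMIs had 7694 of Gm42418 in LFD sham, 17666 in HFD sham and 17380.1 in HFD VSG, but 7439, 12366 and 6958 with at least 750 genes.

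**Figure D4:**
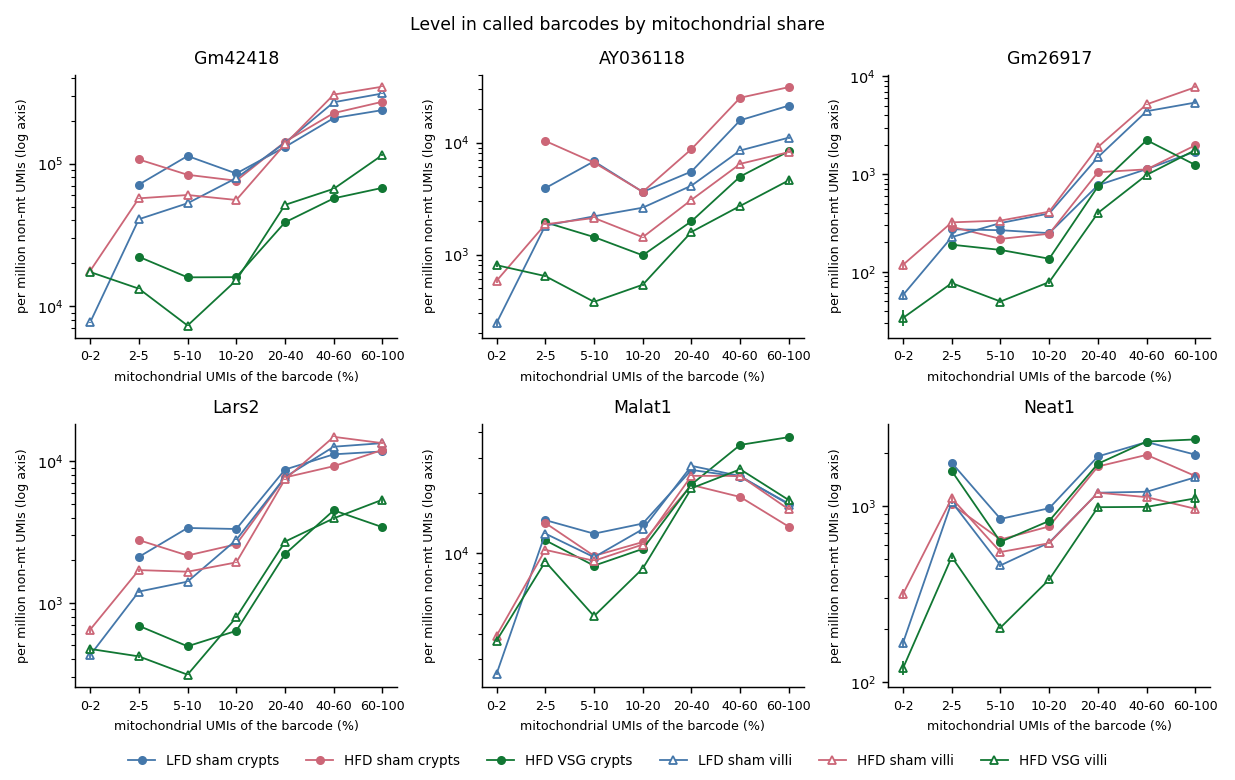
Level of each member in non-mitochondrial CPM (log axis) in called barcodes of each library by the mitochondrial share of the barcode in percent (x axis), for bins of at least 50 barcodes of any gene number, with crypt-labelled libraries as filled and villus-labelled ones as open symbols. Gm42418 is highest in the last bin in all 6 libraries, whereas Malat1 turns down after the bin from 20 to 40% in the 4 sham libraries. Without barcodes under 750 genes Gm42418 was highest in the last bin in 4 libraries, and Malat1 was highest at 40% or more in all 6.

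Barcodes with under 750 genes also held more of some members. Gm42418 was 2.39 to 7.96-fold higher there than in passing barcodes, AY036118 3.16 to 7.73-fold, Gm26917 2.97 to 6.83-fold and Lars2 2.5 to 4.65-fold, each past 1 in 6 of 6 libraries. The 17 genes past 1 in all libraries, 0.18% of 9430, were these 4 and the 13 mitochondrial genes. In CPM, Malat1 was lower in 6 of 6 libraries, at 0.609 to 0.749 times the passing level, and Neat1 in 5 of 6. The share of all genes lower in 6 of 6 was not counted. The direction for Malat1 depended on the total. In non-mitochondrial CPM it was higher than in passing barcodes in the HFD VSG crypts (11300 against 10093), LFD sham villi (12728 against 10919) and HFD sham villi (13603 against 10149). It was still lower in the LFD sham crypts, HFD sham crypts and HFD VSG villi. Gm42418 made up 15.3 to 17.3% of the UMIs of such barcodes in the 4 sham libraries and 5.44% and 6.61% in the HFD VSG crypts and villi. Without barcodes that were also over the mitochondrial limit, Gm42418 (3.19 to 9.95-fold), AY036118 (5.51 to 10.3-fold) and Lars2 (2.65 to 5.31-fold, all in CPM) were past 1 in 6 of 6 libraries, as were 0.0534% of genes, and Gm26917 (1.46 to 2.71-fold) in 4. Malat1 was then at 0.852 to 1.05 times the passing level and higher in 2 of 6 libraries, and Neat1 at 0.607 to 1.52 times and higher in 3 of 6. In depth such barcodes lay near the plateau of uncalled droplets described below. By library, those of 250 to under 750 genes had medians of 589 to 1273 UMIs, and plateau droplets 466 to 934. How many of them held a cell was not tested.

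Over bins of gene number, Gm42418 was 84808 to 267593 non-mitochondrial CPM in barcodes with 250 to under 750 genes and 8079 to 48252 at 3000 or more, among barcodes with at most 20% mitochondrial UMIs. Malat1 had its highest level in between, with 20234 to 27123 from 750 to under 1500 genes against 4822 to 11756 with fewer, and in the LFD sham crypts and HFD VSG villi a little more from 1500 to under 3000 genes. Gm26917 was highest from 750 to under 1500 genes in 6 of 6 libraries, Neat1 in 5 and Lars2 in 4. AY036118 had 2209 to 12495, from 750 to under 1500 genes, against 4132 to 31766 with fewer. On either side of the limit of 750 genes, Gm42418 had 52929 to 255719 inside and 84808 to 267593 outside and was higher outside in every library. As a ratio the step was smallest in the LFD sham crypts, from 255719 to 257501, and largest in the HFD VSG crypts, from 52929 to 84808. As a difference in non-mitochondrial CPM the step was larger in the HFD sham villi, from 216393 to 264510.

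Droplets without a called cell hold free RNA. Of all Gm42418 UMIs of a library, 60.5 to 74.1% lay in such droplets, and of AY036118 UMIs 63.8 to 84.9%, against 16.3 to 44.3% of the UMIs of all genes. For Lars2 it was 37.4 to 61.1%, for Malat1 10.3 to 38.4% and for Neat1 9.53 to 38.3%. For Gm26917 it was 12.2 to 34.5%, with 41.3 to 56.4% in called barcodes that failed a filter and 22.6 to 30.3% in passing ones in 5 libraries. The HFD VSG villi differed, with 29.1% of Gm26917 UMIs in failing and 58.7% in passing barcodes.

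A plateau of 40758 to 52165 uncalled droplets by library, of 466 to 934 UMIs in the median, held most of the uncalled UMIs. Gm42418 made up the following share of plateau UMIs: 27.0%, 30.1% and 9.22% in the LFD sham, HFD sham and HFD VSG crypts and 27.4%, 31.1% and 10.2% in the corresponding villi. Both HFD VSG libraries lay below the 4 sham libraries, and how many other genes had this order was not counted. The 6 members made up 30.1 to 35.8% of plateau UMIs in sham and 11.2 to 11.3% in HFD VSG libraries. AY036118 was 7.30 to 14.5-fold, Gm42418 3.74 to 12.3-fold and Lars2 2.17 to 4.40-fold above passing barcodes, and with Snhg9, a host gene of small nucleolar RNAs, these were the 4 genes past 1 in 6 of 6 libraries (0.0398% of 10045). In CPM, Malat1 and Neat1 were lower in the plateau in 6 of 6 libraries, at 0.573 to 0.864 and 0.512 to 0.957 times the passing level, and Gm26917 was at 0.642 to 1.65 times. The 6 members weigh more in the plateau total, with 31.5% of plateau and 9.11% of passing UMIs in the LFD sham crypts. A total without the members was not taken for the plateau, and the share of all genes lower in 6 of 6 libraries was not counted.

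Emptier droplets, with fewer than 100 UMIs, had a different makeup. By library they were 2081602 to 3012146 barcodes with 1801243 to 4593178 UMIs in all. How many of these barcodes were droplets of free RNA was not tested. Here AY036118 (2.81 to 5.41-fold) and Gm26917 (2.14 to 2.93-fold) were past 1 in 6 of 6 libraries, among 8 such genes (0.0855% of 9362), while Gm42418 (1.00 to 1.41-fold) and Lars2 (1.11 to 1.47-fold) were higher by less. Malat1 was higher than in passing barcodes in 1 of 6 libraries and Neat1 in 4, but with mitochondrial genes and the members left out of the total Malat1 was higher in 6 of 6. The share of Gm42418 among these UMIs was 7.23%, 7.30% and 1.44% in the LFD sham, HFD sham and HFD VSG crypts and 6.91%, 5.89% and 1.16% in the corresponding villi, again with both HFD VSG libraries lowest.

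**Figure D5:**
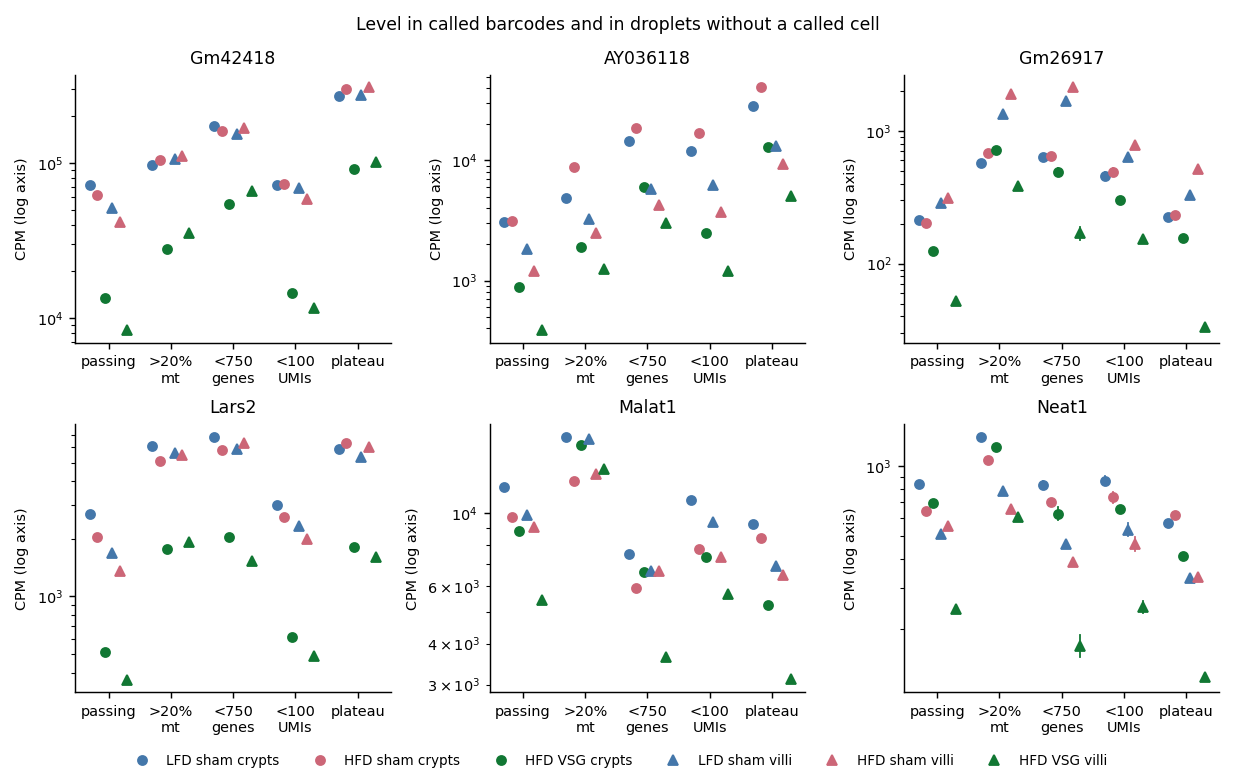
CPM (log axis) of each member in each of 6 libraries, circles for crypt-labelled and triangles for villus-labelled ones, with 95% counting intervals as lines, for passing barcodes, called barcodes over 20% mitochondrial UMIs, called barcodes under 750 genes, droplets under 100 UMIs and plateau droplets. In every population the 2 HFD VSG libraries have the lowest Gm42418, and Gm42418, AY036118 and Lars2 are higher in the plateau than in passing barcodes in all 6 libraries.

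UMIs of one member per UMI of another were also compared between populations, as a description that does not show the source of free RNA. UMIs of Gm42418 per UMI of AY036118 numbered 23.5, 19.98 and 15.1 in the LFD sham, HFD sham and HFD VSG crypts and 28.1, 35.1 and 21.5 in the corresponding villi, in passing barcodes. In plateau droplets the ratio was 9.49, 7.34 and 7.11 in the LFD sham, HFD sham and HFD VSG crypts and 20.6, 33.0 and 20.3 in the corresponding villi, lower in each library, and in droplets under 100 UMIs it was 4.31 to 15.7, lower again in each. Malat1 had 12.7 to 22.2 UMIs per UMI of Neat1 in passing barcodes and 12.7 to 24.9 in plateau droplets. The villus-labelled libraries had the higher ratio in both pairs, in passing barcodes and in the plateau, in each group.

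If each passing barcode held free RNA at the depth and makeup of the plateau, the amount would equal 18.5 to 38.1% of its library's passing Gm42418 UMIs, 19.6 to 104% of those of AY036118 and 6.62 to 24.7% of those of Lars2, with the highest value in the HFD sham crypts for all 3. It would equal 0.97 to 9.11% for Gm26917, 0.865 to 6.84% for Malat1, 0.773 to 7.58% for Neat1 and 1.51 to 7.92% for all genes. At the share that the study states, with the makeup of droplets under 100 UMIs, it would be larger in the HFD sham libraries, at 67.6% in the crypts and 41.5% in the villi for Gm26917, 22.4% and 13.4% for Malat1 and 31.8% and 13.8% for Neat1. In the other 4 libraries it would be 6.14 to 10.3%, 2.18 to 4.39% and 2.14 to 4.81%. In the HFD sham crypts and villi it would also be larger for Lars2, at 35.6% and 24.2%, and for AY036118, at 151% and 52.1%. For Gm42418, at 32.6% and 23.2%, it would be smaller than from the plateau. After subtraction of the plateau amount, Gm42418 was −2.06 from HFD sham to HFD VSG in the crypts and −2.16 in the villi. AY036118 had no UMIs left in the HFD sham crypts, so that no ratio could be given there.

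Cell classes were cut from passing barcodes by the share of UMIs in fixed marker genes, at limits set after these shares were seen and without the members. Such a class is a range of a score and not a type: 779 to 2017 barcodes per library lay within 1.5-fold of the enterocyte limit and 32 to 129 of the goblet limit. Median enterocyte-marker shares in the other classes were 0.0515 to 3.79% of UMIs, against a limit of 5%, and immune-marker shares were at 0 to 0.0182%. The level of Gm42418 in barcodes with immune markers was 102176, 117808 and 33205 non-mitochondrial CPM in the LFD sham, HFD sham and HFD VSG crypts, and 109033 and 31386 in the villi of LFD sham and HFD VSG. It was the highest of the 7 classes in these libraries except the HFD sham crypts, where 13 tuft-marker barcodes had 124166. These barcodes were shallow, with medians of 3084 to 5346 UMIs, and the part of depth was not tested. The HFD sham villi had 4 such barcodes and were given no value. Paneth-marker barcodes, of secretory cells rich in defensins, had the lowest Gm42418 in 5 of 6 libraries, from 4845 in the HFD VSG crypts to 28245 in the HFD sham crypts, and stem- and cycling-marker barcodes in the HFD sham villi (26479). Median UMIs of Paneth-marker barcodes were 3273, 22695 and 43263 in the LFD sham, HFD sham and HFD VSG crypts. In the corresponding villi they were 51706.5, 7118 and 56649, and the part of depth was not tested here either. Enterocyte-marker barcodes had 61664, 55638 and 15781 in the LFD sham, HFD sham and HFD VSG crypts and 56411, 40682 and 10126 in the corresponding villi.

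Malat1 ran highest in barcodes with markers of tuft cells, the chemosensory cells of the epithelium, in 5 of 6 libraries. In non-mitochondrial CPM it had 74141, 45783 and 31863 in the LFD sham, HFD sham and HFD VSG crypts and 39098, 43415 and 22435 in the corresponding villi there, while enterocyte-marker barcodes had 7278 to 13132. In the HFD VSG villi the immune-marker barcodes were above the tuft-marker ones, at 27892. The tuft classes held 13 to 70 barcodes. Neat1 was highest in barcodes with markers of goblet cells, which secrete mucus, in 5 of 6 libraries, at 3392, 2449 and 3444 in the LFD sham, HFD sham and HFD VSG crypts and 2516, 2015 and 1231 in the corresponding villi, and in enteroendocrine-marker barcodes in the HFD sham crypts, at 2989. Stem- and cycling-marker barcodes had 175 to 346 of Neat1 and 3905 to 7077 of Malat1. Gm26917 had its highest class at 135 to 2395, tuft-marker barcodes in 4 libraries.

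Passing barcodes below every marker limit, 340 to 1889 per library, held more Gm42418 than any marker class in 3 of the 4 sham libraries, with 223258 and 218782 non-mitochondrial CPM in the crypts of LFD sham and HFD sham and 104007 and 81018 in their villi. The exception was the LFD sham villi, where barcodes with immune markers had more. In HFD VSG they had 16559 and 8397, near the enterocyte-marker barcodes of the same libraries. The members count in the total from which marker shares are taken, so a barcode rich in Gm42418 falls below these limits more readily.

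Genes of the pathways around these RNAs were read from lists drawn up with earlier results of these data known. Of the 16 other mitochondrial aminoacyl-tRNA synthetases, 0 were lower past 1 after VSG in the crypts or the villi, where 0.801% and 7.51% of all genes were, and Pars2 was higher in the villi (1.01), with list medians of 0.20 and 0.28. Lars, the cytosolic leucyl-tRNA synthetase, was at 0.41 and 0.28, where Lars2 was at −1.98 and −1.89. Of 12 genes of ribosomal RNA synthesis and processing, 1 was higher past 1 in the crypts, the RNA polymerase I subunit Polr1b (1.01), and 3 in the villi, the nucleolar proteins Fbl (1.19), Npm1 (1.24) and Dkc1 (1.33), with 0 lower, where 1.38% and 11.1% of all genes were higher past 1. Host genes of small nucleolar RNAs, which guide the modification of ribosomal RNA, were higher past 1 in 7 of 8 cases in the villi, among them Snhg6 (1.60) and Gas5 (1.51), with a median of 1.34, and in 0 of 8 in the crypts, with a median of 0.34. The villus-labelled HFD VSG library also had more stem and cycling markers than HFD sham (1401 against 723 CPM) and its part in these genes was not tested.

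Of the 7 paraspeckle proteins, 10 nuclear speckle and SR proteins and 8 messenger RNAs known to be held in the nucleus, 0 were past 1 after VSG in either compartment, a count to be read beside the 0.801% of all genes lower and 1.38% higher in the crypts and 7.51% and 11.1% in the villi. Malat1 was at −0.13 and −0.74 and Neat1 at 0.11 and −1.18. Among 3 of 7 other nuclear long noncoding RNAs with enough UMIs, Kcnq1ot1 was higher past 1 after VSG in the crypts (1.09) and lower in HFD sham than in LFD sham villi (−1.36). Of the 13 mitochondrial genes, mt-Nd6 (−2.93), mt-Atp8 (−2.77), mt-Nd5 (−1.02) and mt-Nd4l (−1.01) were lower past 1 after VSG in the villi and 0 in the crypts, against 7.51% and 0.801% of all genes. Of 10 abundant cytosolic messenger RNAs, Ppia (1.28) and Tmsb10 (1.05) were higher past 1 in the villi, as were 11.1% of all genes. From LFD sham to HFD sham, Kcnq1ot1 and Dkc1 (−1.01), both in the villi, were the genes of these lists past 1. Of all genes, 9.24% were past 1 in either direction in the villi and 2.31% in the crypts, and nothing is read from these 2.

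To find genes of like pattern, log2(CPM + 1) was correlated over 39 sums of called barcodes, 1 for each library and bin of mitochondrial share with at least 50 barcodes, for 9653 genes. The points share libraries and depth, and Pearson's r describes them with no test. The members were chosen for their levels in barcodes with many mitochondrial UMIs and the sums are binned by that share, so likeness to mitochondrial genes follows in part from the choice and nothing is read from it. Gm42418 went with Lars2 (0.95) and AY036118 (0.86), Gm26917 with Lars2 (0.86) and Malat1 with Neat1 (0.83), whereas r between Gm42418 and Malat1 was 0.45. Outside the set, Gm26917 was nearest to mt-Nd6 (0.90), mt-Atp8 (0.89), mt-Nd5 (0.85), mt-Nd4l (0.84) and mt-Nd2 (0.82), all mitochondrial genes. Mitochondrial genes also led for Gm42418, with mt-Atp8 (0.77), mt-Nd6 (0.75), Kmt2d (0.74), Ehbp1 (0.73) and Gm3054 (0.72), and for Lars2, with mt-Atp8 (0.86), mt-Nd6 (0.84), Nlrp9b (0.80), Ehbp1 (0.77) and Gm3054 (0.77). AY036118 was nearest to B230206H07Rik (0.80), Cubn (0.75), Setdb2 (0.75), Clca4a (0.74) and Gm3054 (0.73). Malat1 had none of these among its nearest genes, which were Ccnl2 (0.92), Micall1 (0.92), Rbm5 (0.92), Zfp276 (0.91) and Nfat5 (0.91), of which Ccnl2 and Rbm5 act in splicing, and Neat1 was nearest to Fgd6 (0.91), Dop1b (0.90), Klf4 (0.90), Itprid2 (0.90) and Stat2 (0.89).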

How the data were processed

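Unique molecular identifiers (UMIs) were counted in 6 libraries prepared with 3′ v3.1 chemistry of 10x Genomics, 1 for each of 3 groups of mice and 2 labelled compartments. The counts deposited by the authors are whole-number UMI counts per gene and barcode, not normalized, made per the labels with Cell Ranger 6.0.0 on mm10. One matrix of called barcodes and one of all droplets were used per library, with no entry of a called barcode that differed between them, although the headers of the all-droplet matrices name another Cell Ranger version. The counter's strand setting is not given in the sources used here.

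Sums of UMIs were taken over sets of barcodes and given as counts per 1000000 UMIs (CPM). Passing barcodes had at least 750 genes and at most 20% mitochondrial UMIs. Droplets without a called cell were taken below 100 UMIs, and as a plateau within 1.5-fold of the most common total between 200 and 2000 UMIs. Log2 ratios of CPM have exact conditional 95% intervals and a floor of 3 UMIs. The background was all genes that averaged 50 UMIs or more over the pair compared, and a log2 ratio of 1 describes a difference. The computations were checked on simulated counts.

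The members are named in full, and the genes nearest to each, 5 per member, were named by Pearson's r. Genes of the lists were named where past 1, with examples. Genes shared by all libraries past 1 were named after their values were seen. The members and the lists were chosen with earlier results of these data known. Doublets were not called, and an alternative removed the deepest barcodes. Other alternatives changed the total, the scaling, the filters, the free RNA and the droplets, and leaving out a replicate was not possible with 1 library per group. Totals per library are given with the results. Python 3.11.15, numpy 2.4.6, scipy 1.17.1, pandas 2.3.3 and matplotlib 3.10.9 were used. Positions and sequences are of GENCODE vM21 transcripts on GRCm38.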

Additional observations from a re-analysis of the deposited data

Results flagged for a closer look

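A few log2 ratios had opposite signs in the crypt-labelled and the villus-labelled libraries, with counting intervals that left out 0 in both. The difference between compartments was not tested, since each has 1 library per group. From LFD sham to HFD sham, AY036118 was at 0.03 in the crypts and −0.62 in the villi, Gm26917 at −0.08 and 0.12, and Neat1 at −0.38 and 0.12. From HFD sham to HFD VSG, Neat1, the scaffold of paraspeckles, was at 0.11 in the crypts and −1.18 in the villi.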

How the results depend on the processing

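Each log2 ratio was recomputed under 10 other settings. From HFD sham to HFD VSG, Gm42418 ranged from −2.51 to −1.99 in the crypts and −2.67 to −2.12 in the villi, and Lars2 from −2.36 to −1.69 and −2.49 to −1.64, past 1 under all 10. AY036118 ranged from −2.26 to −1.24 in the crypts, where 8 settings gave a value, and −1.91 to −0.89 in the villi, where subtracting the free-RNA share that the study states took it within 1. It had no value in the HFD sham crypts under the other 2 settings, in which the subtraction left no UMIs. Gm26917 ranged from −1.07 to 0.37 in the crypts and −3.38 to −2.11 in the villi, Malat1 from −0.32 to 0.00 and −0.89 to −0.57, and Neat1 from −0.09 to 0.23 and −1.39 to −1.12, so the directions of Gm26917 and Neat1 in the crypts turned with the setting, and Gm26917 passed 1 under 2 settings. From LFD sham to HFD sham, Gm42418 in the villi ranged from −0.39 to 0.02. The number of members past 1 in that comparison went from 0 to 1 in either compartment when the stated share of free RNA, with the makeup of droplets under 100 UMIs, was subtracted (Gm26917 at −1.18 in the crypts, where AY036118 had no UMIs left in HFD sham and could not be counted, and AY036118 at −1.24 in the villi), and from 0 to 1 in the villi at a size of 0.5. The libraries with more Malat1 in droplets without a called cell numbered 1 for droplets under 100 UMIs, 6 with mitochondrial genes and the members left out of the total, 0 in the plateau and 3 for droplets of 10 to 50 UMIs, and those with more Neat1 went from 4 to 0 in the plateau. The subtraction by the plateau and the bins of mitochondrial share in barcodes of at least 750 genes were added after the data were seen. No paired analysis was possible because each group had 1 library per compartment. Intervals cover counting error only, so differences between mice, pools and preparations are not measured, and depth limits Gm26917 the most.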
